A study of Gallus gallus with 15 samples.

Results

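AMP-activated protein kinase (AMPK) was followed through the transcripts of 9 genes in the breast muscle of Korat chickens (KRC). They were the catalytic α subunits PRKAA1 and PRKAA2, the scaffold β subunits PRKAB1 and PRKAB2, the regulatory γ subunits PRKAG1, PRKAG2 and PRKAG3, and the upstream kinases STK11 (LKB1) and CAMKK2. The genes were chosen by symbol as known members of this system, with earlier results of these data known. All 9 were found among the 17475 genes of the count table.

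AMPK is a complex of a catalytic, a scaffold and a regulatory subunit that senses a shortage of cellular energy: AMP and ADP bind to the γ subunit, and STK11 phosphorylates the catalytic subunit. CAMKK2 phosphorylates the same residue when calcium rises. The active kinase switches on glucose uptake and fat oxidation and restrains the synthesis of lipid and protein. In fast glycolytic muscle of mammals, complexes of the PRKAA2, PRKAB2 and PRKAG3 products are the main ones activated by contraction, whereas PRKAA1 and PRKAB1 are expressed in most cell types.

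The birds were 15 females of KRC, a cross of Thai indigenous males with a university breeder line, sampled at 10 weeks of age with 1 library per bird. Group C (5 birds) received L-histidine at 0.5% of the diet, group B (5 birds) received β-alanine at 1% of the diet, and group A (5 birds, control) received the same diet without a supplement. Muscle joins these amino acids into the dipeptide carnosine. As the amounts differ, group C and group B are not matched doses, and both were compared with the same 5 control birds.

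Between 13435756 and 14964384 fragments were counted per bird in group C, between 13957490 and 15381547 in group B and between 10620229 and 14553374 in group A. Levels are given as normalized FPKM, which is fragments per kilobase of exon at a common library size after relative log expression (RLE) scaling, so that levels of different genes can be compared per unit of length. Unscaled, the log2 fold changes over all genes tested had a median of 0.29 in group C and 0.18 in group B, and fold changes are relative to the scaled libraries. In the paper's read statistics, control replicates 3 and 4 had the lowest mapping rates and the highest GC contents. Fits without both are also given. In the counts, a pair of libraries stood apart from the rest. Control replicate 4 had the lowest depth, and its 10 most abundant genes held 40.7% of its counts. This share was 34.8% to 35.5% in the other control birds, 24.5% to 36.3% in group C and 30.2% to 34.8% in group B. Levels are divided by the library total and by the RLE factor, which was 0.678 in that bird and 0.856 to 1.19 in the others. L-histidine replicate 2 had most slow fibre markers far above the other birds, so results that rest on it are also given without it. All 5 birds of each group had high levels of fast fibre markers (7 of 9 markers of the list were in the table, 1 of them near 0), as the labelled tissue requires.

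In control birds the 9 genes fell into a high and a low set. PRKAB2, PRKAG3 and PRKAG1 were the most abundant, with 248 ± 55.2, 136 ± 14.6 and 104 ± 41.7 normalized FPKM (mean ± SD, n = 5), followed by STK11 with 29.4 ± 6.06 and PRKAA2 with 21.1 ± 6.45. PRKAG2 (3.53 ± 0.280), PRKAB1 (2.36 ± 0.585), PRKAA1 (1.64 ± 0.424) and CAMKK2 (0.925 ± 0.378) were low. Neighbours in this order did not overlap between control birds at PRKAB2 and PRKAG3 (1.82-fold), at PRKAG1 and STK11 (3.53-fold) and at PRKAA2 and PRKAG2 (5.97-fold), whereas the other 5 neighbouring pairs overlapped. Over all 15 birds PRKAB2 ranked 277 and CAMKK2 ranked 8254 among the 11861 genes tested, and the counts behind CAMKK2 (16 to 950) and PRKAA1 (37 to 143) were small beside those of PRKAB2 (4151 to 7035).

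Among the 9 genes, the transcripts of the main muscle forms PRKAA2 and PRKAB2 were the most clearly lower in supplemented birds, PRKAG3 was lower in L-histidine birds, and PRKAA1, PRKAB1, STK11 and CAMKK2 had point estimates above 0 in both groups, except that PRKAB1 was at -0.01 in group C once the gene length trend was removed. None of these differences passed the adjusted test with edgeR's quasi-likelihood method, in which 0 of the 9 genes and 0 of 11861 genes (0%) had an adjusted p under 0.05 in group C, and 0 of 9 and 0% in group B. At an unadjusted edgeR p under 0.05, 4 of the 9 genes stood out in group C (1 higher, 3 lower), against 19.2% of all genes tested, and 3 of 9 in group B (1 higher, 2 lower), against 10.6% of all genes. With DESeq2, 2 of the 9 genes had an adjusted p under 0.05 in group C, both lower, against a background of 3.02% of genes, and 0 of 9 in group B, against 0.472%. The paper's DESeq2 results from the same birds list PRKAA2 as lower with L-histidine, so the call of PRKAA2 repeats that result. The median log2 fold change of the 9 genes was 0.13 in group C and -0.07 in group B, beside 0.01 and -0.02 over all genes tested, and 5 of 9 point estimates were above 0 in group C and 4 of 9 in group B.

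**Figure D1:**
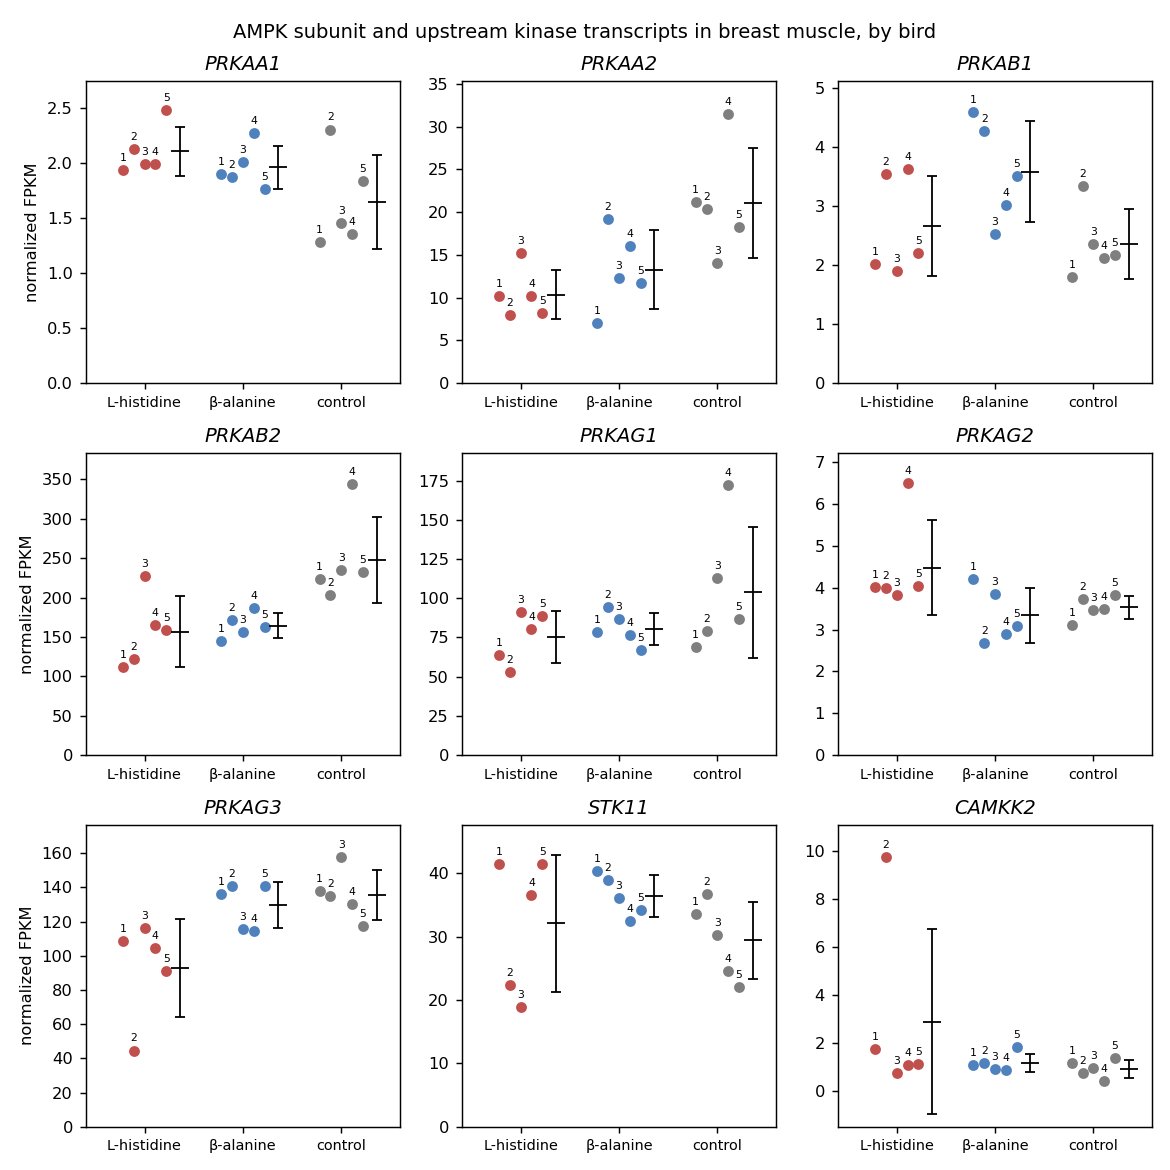
Normalized FPKM of each of the 9 genes (vertical axis, one panel per gene) in the 5 birds of the L-histidine, β-alanine and control groups. Points are birds with their replicate number, the black mark beside them is the mean with the SD, and PRKAA2 and PRKAB2 sit lower in both supplemented groups (means 10.4, 13.2 and 21.1 for PRKAA2), while CAMKK2 is set apart by 1 L-histidine bird at 9.73.

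PRKAA2, which encodes the catalytic subunit typical of muscle, lies on chromosome 8 at 26108439 to 26132420 (GRCg6a, + strand). Its level was 10.1, 7.97, 15.2, 10.2 and 8.24 normalized FPKM in L-histidine birds 1 to 5. It was 7.01, 19.2, 12.3, 16.0 and 11.8 in β-alanine birds, and 21.2, 20.4, 14.05, 31.5 and 18.2 in control birds. All 5 birds of either supplemented group were below the control mean, and 4 of 5 L-histidine birds and 3 of 5 β-alanine birds were below every control bird. The log2 fold change was -1.02 (SE 0.27) in group C (edgeR, Benjamini-Hochberg adjusted p = 0.170) and -0.67 (SE 0.27) in group B (edgeR adjusted p = 0.437). With DESeq2, PRKAA2 was downregulated in group C at an adjusted p of 0.0226 and not called in group B (adjusted p = 0.303). When each of the 15 birds was left out in turn, the DESeq2 call in group C held in 11 of 15 fits, and the adjusted p was 0.150 without control replicate 4, 0.0716 without L-histidine replicate 1, 0.0876 without L-histidine replicate 2 and 0.101 without L-histidine replicate 5.

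PRKAA1, the widely expressed catalytic subunit (chromosome Z, 12893100 to 12913153, - strand), took the opposite direction in its point estimates. It had 1.93, 2.12, 1.99, 1.99 and 2.48 normalized FPKM in L-histidine birds, 1.897, 1.87, 2.01, 2.27 and 1.76 in β-alanine birds, and 1.28, 2.30, 1.45, 1.36 and 1.83 in control birds. All 5 birds of both supplemented groups were above the control mean, but control replicate 2 was above all of them except L-histidine replicate 5, and the log2 fold changes of 0.35 (SE 0.18) in group C and 0.25 (SE 0.18) in group B had edgeR adjusted p-values of 0.305 and 0.618. With unscaled library totals these log2 fold changes were 0.61 in group C and 0.42 in group B. The endothelial marker sum (6 of 6 markers in the table) was 67.7 to 99.7 normalized FPKM in L-histidine birds, 49.5 to 84.3 in β-alanine birds and 53.0 to 74.3 in control birds. Its markers differed: PECAM1 was 20.0 to 46.4 in L-histidine and 8.13 to 25.2 in control birds. TEK (4.50 to 6.72 and 3.62 to 4.78) and KDR (2.18 to 3.40 and 1.44 to 2.51) were also higher in most L-histidine birds. VWF (18.2 to 21.5 and 15.7 to 22.0), CDH5 (10.3 to 13.3 and 6.43 to 13.1) and EGFL7 (7.78 to 15.1 and 8.18 to 13.4) overlapped widely. The part of endothelial tissue in the level of PRKAA1 was not tested. In whole muscle, fewer cells of a type and less RNA per cell cannot be told apart.

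Within a bird, the share of each subunit form does not depend on how the library was scaled. PRKAA1 made up 16.0%, 21.0%, 11.6%, 16.3% and 23.1% of the catalytic subunit transcripts per unit of length in L-histidine birds 1 to 5. The share was 21.3%, 8.87%, 14.1%, 12.4% and 13.0% in β-alanine birds, and 5.70%, 10.1%, 9.36%, 4.13% and 9.12% in control birds. Every L-histidine bird was thus above every control bird, whereas β-alanine and control birds overlapped through β-alanine replicate 2. The mean share of PRKAA1 was 17.6% ± 4.54 in group C, 13.9% ± 4.55 in group B and 7.69% ± 2.62 in group A (SD, n = 5). The gap between the lowest L-histidine bird and the highest control bird was small (11.6% against 10.1%) and did not involve control replicate 4, which had the lowest share. Taken from raw counts, in which the longer PRKAA2 transcript weighs more, PRKAA1 was 8.47% ± 2.41, 6.57% ± 2.36 and 3.48% ± 1.23 of the class in groups C, B and A. These shares are formed from the levels of PRKAA1 and PRKAA2 given above and are not a separate result. They are a description and were not tested, and no background over other genes was computed for them.

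**Figure D2:**
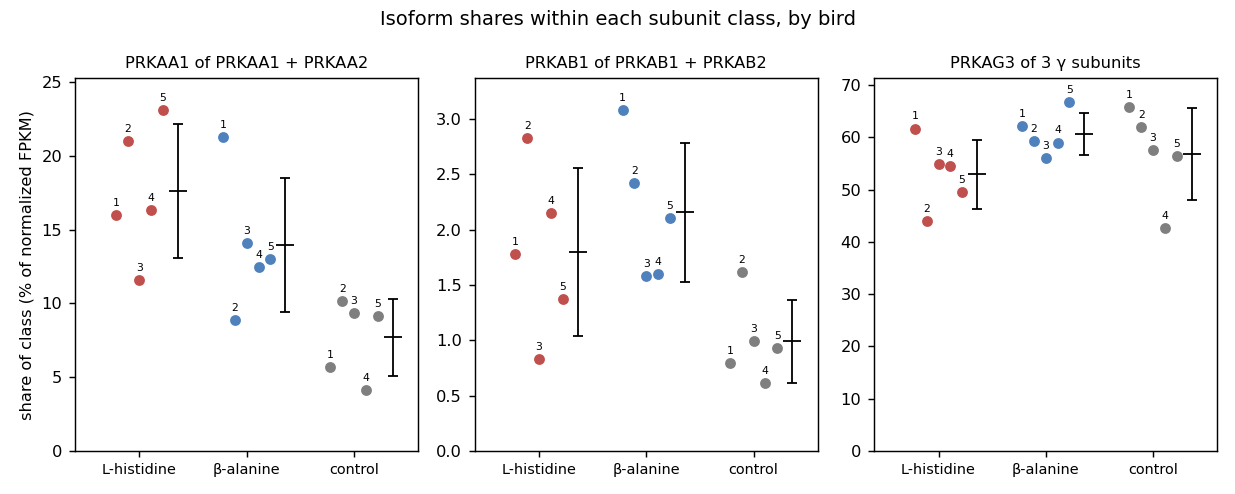
Share of 1 subunit form in its class (percent of the summed normalized FPKM of the class, vertical axis) in each bird of the L-histidine, β-alanine and control groups, with the mean and SD as the black mark. The share of PRKAA1 is 11.6% to 23.1% in L-histidine birds and 4.13% to 10.1% in control birds, while the share of PRKAG3 overlaps between all groups.

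PRKAB2 encodes the scaffold subunit typical of muscle, which holds the complex together and binds glycogen (chromosome 8, 4668642 to 4675486, - strand). It had 112, 122, 227, 165 and 158 normalized FPKM in L-histidine birds. It had 144, 172, 157, 186 and 163 in β-alanine birds and 223, 203, 235, 344 and 232 in control birds. All 5 β-alanine birds were below all 5 control birds, which is 1 of the 9 genes against 1.72% of all genes, and L-histidine replicate 3 was the only L-histidine bird within the control range. The log2 fold change was -0.66 (SE 0.20) in group C (edgeR adjusted p = 0.170) and -0.59 (SE 0.20) in group B (edgeR adjusted p = 0.425).

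With DESeq2, PRKAB2 was downregulated in group C at an adjusted p of 0.0448, and the adjusted p in group B was 0.190. This call held in only 3 of the 15 fits that left out a bird, with adjusted p-values of 0.00185 to 0.235, the highest without control replicate 4, and it was 0.652 without control replicates 3 and 4, where the log2 fold change was -0.49. The fast fibre marker sum was 69966 to 126007 normalized FPKM in L-histidine birds and 88605 to 117068 in β-alanine birds. In control birds it was 103358 to 163932. It was highest in control replicate 4 and, among L-histidine birds, in replicate 3, where PRKAB2 and PRKAA2 were also highest in their groups. Among β-alanine birds it was highest in replicate 4, as was PRKAB2, but PRKAA2 was highest in replicate 2, which had the lowest sum. Control replicate 3 had the lowest control sum, with PRKAB2 at 235. ACTA1 made up most of each sum, and it was the lowest of its group in control replicate 3 (55816) and β-alanine replicate 2 (48412.5). The other markers differed in these birds. TNNI2 was 12367 in control replicate 3 (8187 to 21459 in control birds) and 10034, the highest of its group, in β-alanine replicate 2. MYL1 was the lowest of its group in control replicate 3, as was TNNC2 in β-alanine replicate 2. Marker sums and gene levels of a bird are divided by the same RLE factor. It was lowest in control replicate 4 (0.678), L-histidine replicate 3 (0.944) and β-alanine replicate 4 (0.941) within their groups. The parts of fast fibre content and of this shared factor in the levels of both genes were not tested. PRKAB2 overlaps FAM78B on the opposite strand over 768 bases, and FAM78B had 90 to 409 counts per bird. The strand setting of the counting is unknown here, and the effect of the overlap on the PRKAB2 counts was not tested.

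PRKAB1, the widely expressed scaffold subunit (chromosome 15, 9925478 to 9934478, - strand), was low but above PRKAA1 in 5 of 5 control birds. It had 2.02, 3.54, 1.899, 3.62 and 2.21 normalized FPKM in L-histidine birds, 4.60, 4.27, 2.52, 3.03 and 3.51 in β-alanine birds, and 1.79, 3.34, 2.37, 2.12 and 2.17 in control birds. In group B, 3 of 5 birds were above every control bird, and the log2 fold change was 0.60 (SE 0.23, edgeR adjusted p = 0.437). In group C it was 0.17 (SE 0.23, edgeR adjusted p = 0.699), the groups overlapped, and it was 0.034 without L-histidine replicate 4 and 0.33 without control replicate 2. With unscaled library totals the log2 fold change of PRKAB1 was 0.45 in group C and 0.79 in group B. PRKAB1 made up 1.79% ± 0.760 of the β subunit transcripts per length in group C, 2.16% ± 0.628 in group B and 0.989% ± 0.378 in group A, and the ranges of group B (1.58% to 3.08%) and group A (0.614% to 1.61%) met only at their edges.

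The γ subunits bind the nucleotides that report the energy state of the cell. PRKAG3, a form found mainly in fast skeletal muscle of mammals (chromosome 7, 22421770 to 22426050, - strand), had 109, 44.6, 116, 105 and 91.2 normalized FPKM in L-histidine birds. It had 136, 141, 116, 114 and 141 in β-alanine birds and 138, 135, 158, 130.5 and 118 in control birds. All 5 L-histidine birds were below all 5 control birds (1 of the 9 genes, against 2.02% of all genes), although the nearest birds were close, at 116 and 118, and β-alanine birds overlapped both. Per unscaled library total this separation did not hold. Control replicate 4 had 1852 PRKAG3 counts of 10620229, and L-histidine replicate 1 had 3722 of 14692970. The log2 fold change was -0.55 (SE 0.21, edgeR adjusted p = 0.192, DESeq2 adjusted p = 0.0983) in group C and -0.07 (SE 0.21, edgeR adjusted p = 0.919) in group B, and unscaled library totals gave -0.27 in group C (edgeR adjusted p = 0.398) and 0.14 in group B. Without L-histidine replicate 2, the bird with slow fibre transcripts, it was -0.37 in group C (edgeR adjusted p = 0.334). PRKAG3 overlaps CYP27A1 on the opposite strand over 74 bases.

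PRKAG1, the widely expressed γ subunit (7174210 to 7178375, + strand), had 63.5, 52.7, 91.5, 80.4 and 88.5 normalized FPKM in L-histidine birds, 78.5, 94.1, 86.8, 76.4 and 67.2 in β-alanine birds, and 68.6, 78.9, 113, 172 and 86.6 in control birds. The control birds spread widely, with replicates 3 and 4 above every other bird, and the log2 fold changes of -0.46 (SE 0.23) in group C and -0.36 (SE 0.23) in group B had edgeR adjusted p-values of 0.283 and 0.559. Without control replicate 4 they were -0.20 and -0.10, and without control replicates 3 and 4 they were -0.05 and 0.05. PRKAG2, a γ subunit known for heart disease mutations in humans (chromosome 2, 6368753 to 6550794, - strand), had 4.02, 3.99, 3.82, 6.50 and 4.04 normalized FPKM in L-histidine birds, 4.22, 2.67, 3.85, 2.89 and 3.07 in β-alanine birds, and 3.11, 3.74, 3.46, 3.49 and 3.83 in control birds. In group C, 4 of 5 birds were above every control bird, replicate 4 by the widest margin, with a log2 fold change of 0.34 (SE 0.18, edgeR adjusted p = 0.297) that was 0.17 without replicate 4. With unscaled library totals the group C value was 0.62 (edgeR adjusted p = 0.145). In group B the log2 fold change of PRKAG2 was -0.08 (SE 0.18, edgeR adjusted p = 0.882), and it was 0.12 with unscaled library totals.

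The summed transcripts of each subunit class were compared as levels per length, with no test. The α sum was 12.5 ± 2.80 normalized FPKM in group C, 15.2 ± 4.67 in group B and 22.7 ± 6.36 in group A (SD, n = 5). The β sum was 159 ± 45.1, 168 ± 15.4 and 250.0 ± 54.9, and the γ sum was 173 ± 42.1, 214 ± 16.3 and 243 ± 44.7 in groups C, B and A. Transcripts of the β and γ classes were thus in excess of the α class in every group: the β to α ratio was 12.8 ± 2.10 in group C, 11.8 ± 3.12 in group B and 11.3 ± 2.42 in group A, and the γ to α ratio was 13.95 ± 2.81, 15.3 ± 5.59 and 11.3 ± 3.62. The ranges of both ratios overlapped between all groups. The size of these ratios rests on the exonic lengths, 8800 bases for PRKAA2 against 2143 for PRKAB2, 1524 for PRKAG1 and 1971 for PRKAG3. In raw counts PRKAB2 (4151 to 7035 per bird) was also above PRKAA2 (911 to 2656), but by less.

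**Figure D3:**
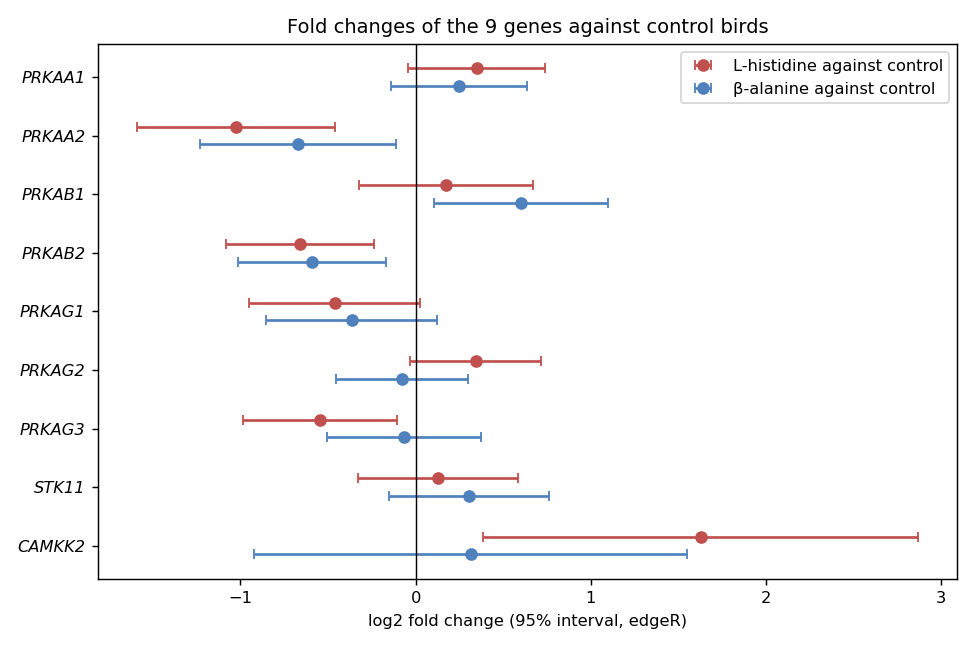
Log2 fold change of each gene against control birds (horizontal axis) with its 95% interval from edgeR, for L-histidine (red) and β-alanine (blue). PRKAA2 (-1.02 and -0.67) and PRKAB2 (-0.66 and -0.59) are the only genes whose intervals lie below 0 in both groups, and the interval of CAMKK2 in L-histidine birds is the widest among those of that group.

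Of the upstream kinases, STK11 is the main activator of AMPK in muscle (chromosome 28, 3095189 to 3129349, + strand). It had 41.4, 22.3, 18.9, 36.5 and 41.5 normalized FPKM in L-histidine birds, 40.4, 38.9, 36.1, 32.5 and 34.1 in β-alanine birds, and 33.5, 36.6, 30.3, 24.6 and 22.1 in control birds. Of the L-histidine birds, 3 were at 36.5 or above and 2 at 22.3 or below, and the log2 fold change was 0.13 (SE 0.22, edgeR adjusted p = 0.760), with 0.016 without L-histidine replicate 5, 0.27 without L-histidine replicate 3 and 0.41 with unscaled library totals. In group B all 5 birds were above the control mean, with a log2 fold change of 0.31 (SE 0.22, edgeR adjusted p = 0.602).

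CAMKK2, the calcium-dependent activator (chromosome 15, 5733911 to 5747302, - strand), had 1.74, 9.73, 0.754, 1.07 and 1.11 normalized FPKM in L-histidine birds, 1.09, 1.14, 0.901, 0.870 and 1.81 in β-alanine birds, and 1.16, 0.727, 0.955, 0.405 and 1.38 in control birds. A single bird, L-histidine replicate 2, carried the difference, with 950 counts, whereas the other 4 L-histidine birds lay in the range of the rest. The log2 fold change in group C was 1.63 (SE 0.59, edgeR adjusted p = 0.183, DESeq2 adjusted p = 0.0660), and without that bird it was 0.33 (edgeR adjusted p = 0.655). In group B it was 0.31 (SE 0.59, edgeR adjusted p = 0.855), and 0.095 without β-alanine replicate 5.

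L-histidine replicate 2 stood apart from the other 14 birds in 7 of 8 slow fibre markers. MYH7B, a slow myosin heavy chain, had 1409 normalized FPKM there against 0.0799 to 18.2 in the other birds, MYL3, a slow myosin light chain, had 1739 against 0 to 15.0, and ATP2A2, the calcium pump of slow fibres, had 48.5 against 0.736 to 1.43. TNNC1 was the exception, at 5088 against 6113 to 19131, and because it outweighs the others, the sum of the 8 markers was 12780 in that bird and 6117 to 19142 in the others. The smooth muscle marker sum (6 of 6 markers) was 269.9 in L-histidine replicate 2 against 56.3 to 154.6, through CNN1 alone at 190.8, while TAGLN, at 5.84, was the lowest of the 15 birds.

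In L-histidine replicate 2 CAMKK2 was 9.04 times the median of the other 14, while PRKAG3 (0.360 times) and PRKAG1 (0.631 times) were the lowest of the 15 birds. PRKAA2 (0.545 times) and PRKAB2 (0.679 times) ranked 14 of 15, and STK11 (0.634 times) ranked 13. These genes were within the range of the rest, as were PRKAA1 (1.11 times), PRKAG2 (1.06 times) and PRKAB1 (1.45 times). The part of slow fibre tissue in these levels was not tested. With this bird left out, PRKAA2 (-0.94, edgeR adjusted p = 0.317) and PRKAB2 (-0.58, edgeR adjusted p = 0.323) kept most of their log2 fold change in group C.

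**Figure D4:**
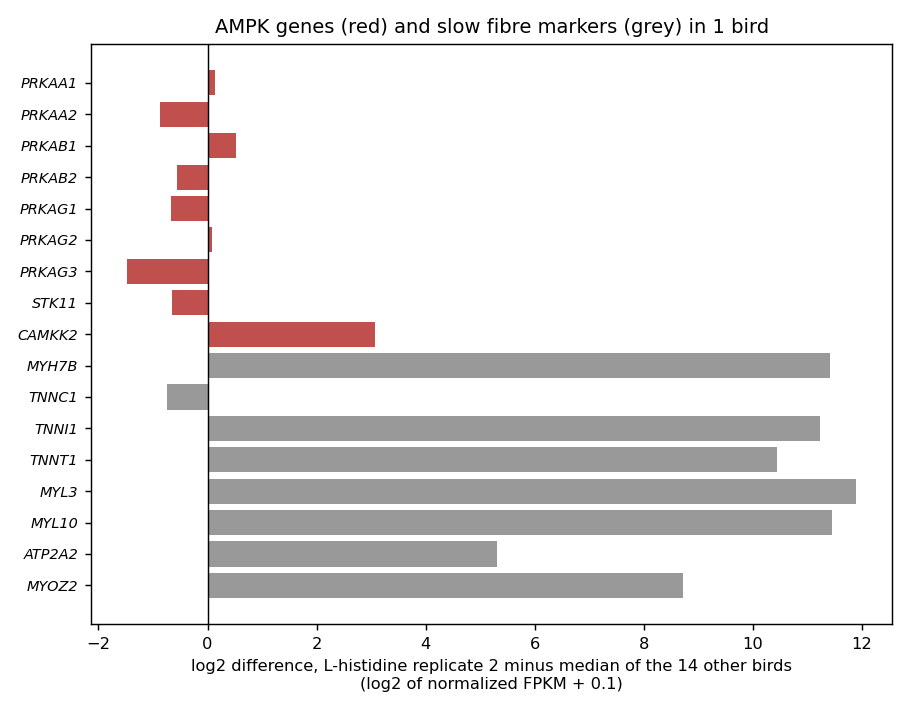
Level in L-histidine replicate 2 minus the median of the other 14 birds, as a difference of log2(normalized FPKM + 0.1) (horizontal axis), for the 9 AMPK genes (red) and the 8 slow fibre markers (grey). CAMKK2 lies far to the right among the AMPK genes and PRKAG3 farthest to the left, and 7 of the 8 markers are far above 0.

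**Figure D5:**
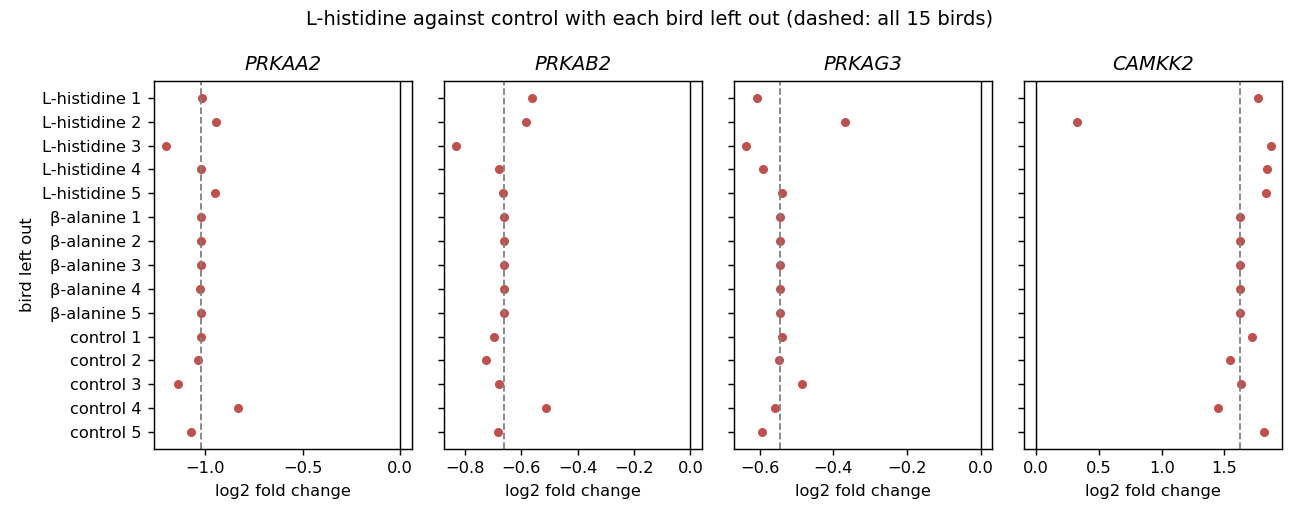
Log2 fold change of PRKAA2, PRKAB2, PRKAG3 and CAMKK2 in L-histidine against control birds (horizontal axis) with the bird named on the vertical axis left out, from edgeR. The dashed line is the value with all 15 birds, and CAMKK2 moves to 0.33 when L-histidine replicate 2 is left out, while PRKAA2 stays between -1.20 and -0.83 and PRKAB2 between -0.83 and -0.51.

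The plot of fold changes with each bird left out shows which birds the values rest on. PRKAA2 was between -1.20 and -0.83 in group C, the weakest without control replicate 4, and its edgeR adjusted p ran between 0.0855 and 0.401. PRKAB2 was between -0.83 and -0.51, also the weakest without control replicate 4. Leaving out control replicates 3 and 4 together gave -0.94 in group C and -0.59 in group B for PRKAA2, and -0.48 and -0.41 for PRKAB2, and DESeq2 then gave PRKAA2 an adjusted p of 0.196 in group C. With unscaled library totals the values were -0.72 and -0.44 for PRKAA2, and -0.37 and -0.36 for PRKAB2, in groups C and B.

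Between the supplements, L-histidine birds were compared with β-alanine birds directly. With edgeR, 0 of the 9 genes and 0 of 11861 (0%) had an adjusted p under 0.05, 3 of 9 had an unadjusted p under 0.05 against 4.02% of all genes, and DESeq2 called 0. These 3 were PRKAG2 (log2 difference 0.42, 95% interval 0.05 to 0.80), PRKAG3 (-0.48, -0.92 to -0.04) and CAMKK2 (1.31, 0.09 to 2.53), each with an edgeR adjusted p of 0.983. Without L-histidine replicate 2, the difference was 0.01 for CAMKK2 and -0.30 for PRKAG3, and without L-histidine replicate 4 it was 0.25 for PRKAG2. For PRKAA2 it was -0.35 (-0.91 to 0.20) and for PRKAB2 it was -0.07 (-0.49 to 0.35), and these intervals leave room for a difference in either direction.

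Correlations between the 9 genes across the birds were computed after the group means were removed. All levels of a bird share its RLE factor, and the part of this factor in the correlations was not tested. Of 36 pairs of the 9 genes, 0 had a Benjamini-Hochberg adjusted p under 0.05 by a permutation test within groups (two-sided, 100000 resamples) and 3 had an unadjusted p under 0.05. PRKAB2 and PRKAG1 had r = 0.756 and rho = 0.754 (permutation p = 0.0042 and 0.00445, adjusted 0.0756 and 0.160), and r = 0.590 without the 2 birds farthest from the median. In each pair these birds were chosen by the first-named gene alone. PRKAA2 and PRKAB2 had r = 0.638 and rho = 0.579 (permutation p = 0.00664 and 0.0309, adjusted 0.0797 and 0.278), and r = 0.557 without the 2 farthest birds. PRKAG1 and CAMKK2 had r = -0.705 and rho = -0.707 (permutation p = 0.0023 and 0.0089, adjusted 0.0756 and 0.160), and r = -0.739 without the 2 farthest birds. As PRKAG1 chose those birds, L-histidine replicate 2, where CAMKK2 was highest, stayed in, and this pair was not computed without it. For PRKAG3 and CAMKK2 the r of -0.748 (rho = -0.279, permutation p = 0.132 and 0.355, adjusted 0.603 and 0.809) did not hold without the 2 farthest birds, where it was 0.01. Here L-histidine replicate 2 was among the birds left out.

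The genes most like PRKAA2 were ranked by Pearson r of log2(normalized FPKM + 0.1) over the 15 birds among 11852 other genes, as a description that includes the difference between the groups. The 5 at the top were NPEPL1 (r = 0.878), SCN2B, a sodium channel β subunit (0.876), MAD1L1, a mitotic checkpoint protein (0.868), PTPA, an activator of protein phosphatase PP2A (0.862), and TOB1, an inhibitor of cell growth (0.862). SCN2B, for example, had 7.67 ± 3.21 normalized FPKM in group C, 10.6 ± 3.57 in group B and 22.4 ± 5.91 in group A (SD, n = 5). At the opposite end were LARP6, an RNA-binding protein of collagen transcripts (-0.896), CPED1 (-0.880) and IGF2BP3, an RNA-binding protein (-0.860). Among the AMPK genes, PRKAB2 was the most like PRKAA2 (r = 0.826, rho = 0.796). CAMKK2 (r = -0.564, rho = -0.454), PRKAA1 (r = -0.511, rho = -0.404) and PRKAG2 (r = -0.487, rho = -0.693) had the most negative r, and for PRKAA1 it was -0.125 after the group means were removed.

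Around the complex, 4 lists of known regulators and targets were counted. No gene of any list had an edgeR adjusted p under 0.05 in either group, and the counts of unadjusted edgeR p under 0.05 are read against 19.2% of all genes in group C and 10.6% in group B. DESeq2 calls (adjusted p under 0.05) are read against 3.02% in group C and 0.472% in group B. Of 21 tested upstream kinases, scaffolds and regulators, 3 were higher and 3 lower in group C and 2 higher and 1 lower in group B, while DESeq2 called 0 in both. STRADA, the partner that activates STK11, had 6.23 ± 1.22 normalized FPKM in group C, 6.24 ± 0.533 in group B and 8.71 ± 2.87 in group A (SD, n = 5), with log2 fold changes of -0.48 (edgeR adjusted p = 0.2196) and -0.48 (edgeR adjusted p = 0.445). SESN2, a stress-induced activator of AMPK, had 6.15 ± 3.003 in group B and 3.03 ± 1.94 in group A, with a log2 fold change of 1.03 (edgeR adjusted p = 0.435), and ADIPOR2, an adiponectin receptor, had one of 0.57 in group B (edgeR adjusted p = 0.445). In group C, PHLPP1, a protein phosphatase, had a log2 difference of 0.60 (edgeR adjusted p = 0.173), and SESN3, a relative of SESN2, had one of 0.82 (edgeR adjusted p = 0.1996).

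STK11 also activates a family of kinases related to AMPK, of which 8 were tested: 1 was higher and 1 lower in group C and 0 in either direction in group B at an unadjusted edgeR p under 0.05, and DESeq2 called 1 in group C and 0 in group B. NUAK1, a kinase of that family, had 7.16 ± 3.49 normalized FPKM (4.83 to 13.3) in group C and 3.60 ± 0.856 (2.27 to 4.58) in group A (SD, n = 5). DESeq2 called NUAK1 upregulated in group C with an adjusted p of 0.0270, and its edgeR log2 fold change was 0.99 (SE 0.26, edgeR adjusted p = 0.170). The paper, from the same birds, also lists NUAK1 as upregulated with L-histidine. MARK2, a microtubule-affinity kinase, had 25.5 ± 4.72 in group C and 38.6 ± 16.3 in group A (log2 fold change -0.60, edgeR adjusted p = 0.211). For SNRK, another of these kinases, the log2 fold change was 0.30 in group C (edgeR adjusted p = 0.407) and 0.34 in group B (edgeR adjusted p = 0.533), and in group B the log2 fold change of SIK3 was 0.51 (edgeR adjusted p = 0.468) and that of NUAK1 was 0.41 (edgeR adjusted p = 0.562).

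Of 27 tested substrates that AMPK phosphorylates, 2 were higher and 2 lower in group C and 3 higher and 1 lower in group B at that unadjusted limit, and DESeq2 called 1 in group C and 0 in group B. CRY1, a clock repressor that AMPK marks for degradation in mammals, had 68.9 ± 16.1 normalized FPKM in group C, 65.4 ± 14.2 in group B and 39.2 ± 11.5 in group A (SD, n = 5). DESeq2 called CRY1 upregulated in group C (adjusted p = 0.0377) and not in group B (adjusted p = 0.146). The paper, from the same birds, also lists CRY1 as upregulated with L-histidine. The edgeR log2 fold change of CRY1 was 0.81 in group C (edgeR adjusted p = 0.170) and 0.74 in group B (edgeR adjusted p = 0.396). Other named substrates were PIKFYVE, a lipid kinase, at 0.57 on the log2 scale in group C (edgeR adjusted p = 0.230), SREBF2, a regulator of cholesterol synthesis, with -0.56 in group C (edgeR adjusted p = 0.245), and SREBF1, a regulator of fat synthesis, with -0.59 in group B (edgeR adjusted p = 0.445).

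Of 14 tested genes whose transcripts follow AMPK activity in mammalian muscle, 2 were higher and 2 lower in each group at that unadjusted limit, and DESeq2 called 0. PPARGC1A, a coactivator of mitochondrial genes that is also an AMPK substrate, had 1.98 ± 1.59 normalized FPKM in group B and 0.627 ± 0.366 in group A (SD, n = 5), with a log2 fold change of 1.65 (edgeR adjusted p = 0.425). PDK4, which limits the entry of pyruvate into mitochondria, had 276 ± 147 in group B and 101 ± 68.2 in group A (log2 fold change 1.45, edgeR adjusted p = 0.425). CS, the citrate synthase of mitochondria, had 107 ± 21.3 in group C, 108 ± 10.2 in group B and 161 ± 60.5 in group A, with log2 fold changes of -0.59 and -0.58 (edgeR adjusted p = 0.193 and 0.437). In group C the electron carrier CYCS had a log2 fold change of -0.40 (edgeR adjusted p = 0.206) and CPT1A, which admits fatty acids to mitochondria, had one of 0.73 (edgeR adjusted p = 0.219). The median log2 fold changes of the 4 lists were 0.16, 0.25, 0.10 and -0.07 in group C and 0.12, 0.26, 0.06 and -0.06 in group B, in the order in which they are described here.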

How the data were processed

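Breast muscle RNA of 15 birds was analysed. According to the study's methods and the submitters' processing notes, the authors used cutadapt 1.9.1 for trimming, HISAT2 2.0.1 for alignment to GRCg6a and HTSeq 0.6.1 for the deposited count of fragments per gene. FPKM, as deposited, follow from those counts, the exonic length and the library total (100% of values within 0.006). The exonic gene sizes are other values deposited by the authors, in bases. Strand use and treatment of multiply mapped reads are not given in the sources used here.

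Counts were scaled by RLE. The 11861 of 17475 genes whose deposited FPKM averaged 0.2 or more were fitted with edgeR 4.0.16 in R 4.3.3 (quasi-likelihood test, all 15 birds, no covariates, 12 residual degrees of freedom), with Benjamini-Hochberg adjustment over all of them. Calls used a limit of 0.05 on the adjusted p, also for the percentages of all genes. The numbers of calls compared between settings also required a fold of at least 1.5. DESeq2 1.42.0 was an alternative without the filter, in which genes with no adjusted p are left out of the background. Other alternatives changed the scaling, the filter, the samples, the gene length trend and a replicate block, and fits without each bird were run. Leaving out control replicates 3 and 4 together with L-histidine replicate 2 was chosen after seeing the data. The fits were tested on simulated data. The p-values of fold changes set the group difference against the spread between birds. In the study's methods, the birds of a group came from different cages, so this spread includes that between cages. All 9 genes were named, with the 3 genes of smallest edgeR p in each list and group. The members and lists were chosen with earlier results of these data known. Chromosome names come from the same symbols in a RefSeq table of GRCg7b. For PRKAG1 that lookup was ambiguous and no chromosome is given.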

Additional observations from a re-analysis of the deposited data

Results flagged for a closer look

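Within groups of 5 birds, the highest or lowest bird was set apart by more than the Dixon limit (gap over range of 0.71) in 4 of the 27 groups tested. The limit stands for about 1 in 20 only in independent groups of normally distributed values. These were unlogged levels of genes measured in the same birds, so the number of flags cannot be read against that rate. CAMKK2 was 9.73 normalized FPKM in L-histidine replicate 2 (gap over range 0.890), the bird with slow fibre transcripts. CAMKK2 was also set apart at 1.81 in β-alanine replicate 5 (0.714). PRKAG2 was 6.50 in L-histidine replicate 4 (0.919). PRKAB2 was 344 in control replicate 4 (0.772), the bird with the lowest depth, the lowest RLE factor (0.678) and the highest fast fibre marker sum. Per unscaled library total this bird was not set apart from control replicate 5. It had 5305 PRKAB2 counts of 10620229, and control replicate 5 had 7035 of 14088753. What set these birds apart was not tested.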

How the results depend on the processing

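With edgeR, calls (adjusted p under 0.05, fold 1.5 or more) numbered 0 in each comparison. DESeq2 called 225 in the L-histidine group, 56 in the β-alanine group and 0 between the supplements. A fit of only the 2 groups compared gave 1 call in the L-histidine group, and leaving out each bird gave 0 to 2 calls there and 0 to 1 in the β-alanine group. Directions turned for PRKAB1, PRKAB2, PRKAG1, PRKAG2 and PRKAG3, in each case to a value of 0.14 or less in size. Against control, library totals without scaling gave 0.12 for PRKAG2 and 0.14 for PRKAG3 in the β-alanine group. Removing the gene length trend gave -0.011 for PRKAB1 in the L-histidine group and 0.014 for PRKAG3 in the β-alanine group. Without control replicates 3 and 4, PRKAG1 was 0.052 in the β-alanine group. With L-histidine replicate 2 also left out, it was 0.058 in the L-histidine group and 0.051 in the β-alanine group, and the differences of the L-histidine from the β-alanine group were 0.0088 for PRKAB2 and 0.0074 for PRKAG1. Leaving out single birds put these differences at -0.24 to 0.029 and -0.18 to 0.0051. The cause was not tested. Replicate numbers did not pair the birds (r of same-numbered birds -0.23 to 0.25, over 0.1 in 5 of 15 pairs), and a fit with the replicate block called 0 genes in each comparison, with log2 fold changes of -1.003 for PRKAA2 and 1.11 for CAMKK2 in the L-histidine group. Counts were lowest for CAMKK2 (16 to 950 per bird) and PRKAA1 (37 to 143), which limits their precision.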
